A study of Mus musculus with 14 samples.

Results

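Opposite-strand genes are genes named after a neighbour on the other DNA strand, written as the neighbour's symbol followed by os and, in some cases, a digit. The members described here are all genes of the deposited region lists whose symbol has at least 4 characters before that ending. They number 48 of the 6687 genes in the lists and occupy 102 of the 10679 lines, each line pairing 1 accessible region with 1 gene. By their RefSeq gene type 43 are noncoding RNA genes, 4 are protein-coding (Wdr83os, Fancd2os, Zbtb8os and Selenos) and 1, Fbxl12os, is a transcribed pseudogene. The name therefore covers more than noncoding RNA, and Selenos, which encodes selenoprotein S, meets the rule by its spelling alone.

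Many promoters of developmental regulators are transcribed in both directions, and a long noncoding RNA on the opposite strand is a common neighbour of homeobox genes. Such loci are typical targets of Polycomb repressive complex PRC2, whose catalytic subunit Ezh2 methylates histone H3 at lysine 27 and keeps these genes silent in cells of other lineages. Some of these RNAs have been studied in their own right, among them Dlx6os1, also known as Evf2, which acts on its neighbouring Dlx genes in the ventral forebrain.

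The cells were erythro-myeloid progenitors, a transient yolk sac population that makes red and myeloid cells, sorted from C57BL/6 embryos at E10.5. Open chromatin was profiled with ATAC-seq, which uses the Tn5 transposase to insert sequencing adapters into accessible DNA, in 500 cells per sample. All 14 samples carried Ezh2fl/fl, in which the gene is flanked by loxP sites, so the controls carry the unrecombined floxed alleles. The groups were Tie2 KO (Ezh2fl/fl; Tie2-CreTg/+, 5 samples), Vav KO (Ezh2fl/fl; Vav-CreTg/+, 3 samples), Tie2 WT (Ezh2fl/fl; Tie2-Cre+/+, 3 samples) and Vav WT (Ezh2fl/fl; Vav-Cre+/+, 3 samples). Tie2-Cre is active in endothelial cells and so also in blood cells of endothelial origin, and Vav-Cre in blood cells. The Vav WT samples enter no deposited list, and Vav KO was set against Tie2 WT, a control of the other Cre line. In that comparison the effects of line and genotype cannot be told apart. Tie2 KO differs from Tie2 WT in the Cre transgene as well as in Ezh2, and these cannot be told apart either. Tie2 KO over Vav KO also crosses the Cre lines, so in it line and driver cannot be told apart. The lists hold called regions with no value per sample, so depth and replicate spread are unknown. A region has an adjusted p-value but no measure of error for its fold change. Ezh2 itself has no line in any list, which leaves its deletion unchecked here. The labels do not say whether the samples of a group came from separate embryos. Throughout, higher and lower refer to accessibility in the first-named group of a comparison, as a log2 fold change of at least 0.58 in size that the authors called. Just outside the rule, with 3 characters before the ending, Wt1os had 2 higher regions in Tie2 KO over Tie2 WT (log2 fold changes 0.72 and 1.33) and 3 in Tie2 KO over Vav KO (0.72, 1.79 and 1.08) in the authors' deposited table. Also outside it, G6bos had -1.24 in Tie2 KO over Tie2 WT and 0.67 in Vav KO over Tie2 WT in the authors' deposited table.

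The sequences below are the RefSeq promoter windows (250 bases before to 50 after the gene start, assembly GRCm38.p6) of 7 members. They were picked for large fold changes among the members with a called region over the start, so they do not stand for all such members. The Six3os1, Nkx2-2os, Gad1os and Zfp85os regions were each also paired with another gene. Capitals mark CG dinucleotides, and each sequence reads 5′ to 3′ along the member's strand.
Evx1os: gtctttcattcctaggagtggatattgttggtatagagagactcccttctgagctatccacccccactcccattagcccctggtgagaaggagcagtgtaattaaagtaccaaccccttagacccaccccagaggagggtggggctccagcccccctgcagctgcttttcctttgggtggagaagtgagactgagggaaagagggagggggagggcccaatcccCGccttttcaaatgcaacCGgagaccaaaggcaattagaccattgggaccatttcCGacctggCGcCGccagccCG
Six3os1: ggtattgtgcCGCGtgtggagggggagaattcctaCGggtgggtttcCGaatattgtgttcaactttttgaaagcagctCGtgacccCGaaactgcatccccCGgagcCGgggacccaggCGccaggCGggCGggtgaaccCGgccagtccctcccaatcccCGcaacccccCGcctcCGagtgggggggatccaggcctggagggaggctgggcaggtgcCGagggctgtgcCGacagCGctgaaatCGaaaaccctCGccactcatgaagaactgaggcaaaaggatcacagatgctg
Nkx2-2os: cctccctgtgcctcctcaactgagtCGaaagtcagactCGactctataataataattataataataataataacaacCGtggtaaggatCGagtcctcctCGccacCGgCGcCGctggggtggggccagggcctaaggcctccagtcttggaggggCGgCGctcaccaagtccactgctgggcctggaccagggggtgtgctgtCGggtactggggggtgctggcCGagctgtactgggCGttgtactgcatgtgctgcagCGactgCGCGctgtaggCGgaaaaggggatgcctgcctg
Gad1os: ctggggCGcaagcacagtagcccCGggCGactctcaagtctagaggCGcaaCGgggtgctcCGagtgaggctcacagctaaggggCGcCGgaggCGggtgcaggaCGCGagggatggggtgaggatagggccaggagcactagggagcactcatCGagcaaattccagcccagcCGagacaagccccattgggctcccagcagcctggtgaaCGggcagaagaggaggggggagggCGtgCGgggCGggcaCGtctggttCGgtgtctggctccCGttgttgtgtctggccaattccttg
Hnf4aos: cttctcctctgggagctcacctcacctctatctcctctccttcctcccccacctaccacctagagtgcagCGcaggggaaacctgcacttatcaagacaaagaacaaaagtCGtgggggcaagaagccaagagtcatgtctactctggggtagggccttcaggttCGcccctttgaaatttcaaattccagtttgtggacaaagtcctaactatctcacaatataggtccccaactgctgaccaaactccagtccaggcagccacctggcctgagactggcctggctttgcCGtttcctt
Chn1os3: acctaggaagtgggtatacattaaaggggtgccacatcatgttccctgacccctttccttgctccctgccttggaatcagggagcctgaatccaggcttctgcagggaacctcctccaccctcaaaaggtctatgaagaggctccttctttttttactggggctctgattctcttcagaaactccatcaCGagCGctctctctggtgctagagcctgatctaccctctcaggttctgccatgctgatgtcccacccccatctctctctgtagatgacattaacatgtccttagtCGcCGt
Zfp85os: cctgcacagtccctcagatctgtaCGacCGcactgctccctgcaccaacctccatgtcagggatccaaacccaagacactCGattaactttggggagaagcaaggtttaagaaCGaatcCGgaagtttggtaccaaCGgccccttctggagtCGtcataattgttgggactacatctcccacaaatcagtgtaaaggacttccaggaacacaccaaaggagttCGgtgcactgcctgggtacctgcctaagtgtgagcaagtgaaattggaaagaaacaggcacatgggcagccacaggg
The windows lie at chr6:52314783-52315082 on the minus strand (Evx1os), chr17:85618347-85618646 on the minus strand (Six3os1), chr2:147183833-147184132 on the plus strand (Nkx2-2os), chr2:70563308-70563607 on the minus strand (Gad1os), chr2:163541672-163541971 on the minus strand (Hnf4aos), chr2:73596276-73596575 on the plus strand (Chn1os3) and chr13:67729012-67729311 on the plus strand (Zfp85os). The first 5 lie at regions that were higher in Tie2 KO, the Chn1os3 window lies at a region that was lower in Tie2 KO than in Tie2 WT, and the Zfp85os window lies at one that was lower in Vav KO than in Tie2 WT. The Six3os1, Nkx2-2os and Gad1os windows hold 20, 17 and 20 CG dinucleotides, against 4 in Hnf4aos, 4 in Chn1os3, 6 in Evx1os and 8 in Zfp85os. A called region held the whole window of 5 of these 7 genes, while 72.7% of the Evx1os window and 91.3% of the Chn1os3 window lay inside one.

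Tie2 KO was compared with Tie2 WT to ask how accessibility near genes differs when Ezh2 is deleted with the endothelial driver. Opposite-strand genes were near regions of higher accessibility more often than near regions of lower accessibility: 25 of the 222 opposite-strand genes in the RefSeq table (11.3%) had a higher region and 3 had a lower one. Among curated noncoding members, the share was 14.7% higher and 1.76% lower. The background over all curated noncoding RNA genes was 6.88% higher and 1.56% lower, and over all curated protein-coding genes it was 12% higher and 2.62% lower. The share of higher regions was thus above both backgrounds for the curated noncoding members, and between them for all 222 genes. Which genes had a region that was tested is unknown, so a gene absent from a list may have been unchanged or not tested. In bulk samples, more cells of a type and more accessible chromatin per cell cannot be told apart.

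Of the 25 higher members, 14 were partners of developmental transcription factor genes. A sense gene was put in that group by its symbol, which had to begin with one of a set of family names (Hox, Dlx, Pax, Nkx, Lhx, Fox, Otx, Emx, Evx, Msx and others) followed by a digit or by a letter and a digit. Of the 25 opposite-strand genes of the RefSeq table whose sense gene is in that group, 14 (56.0%) had a higher region and 0 had a lower one, against 11 of the other 197 (5.58%) with a higher region and 3 with a lower one. The 14 were Evx1os, Otx2os1, Dlx4os, Six3os1, Nkx2-2os, Msx1os, Emx2os, Foxd2os, Lhx1os, Hoxa11os, Dlx6os2, Foxl2os, Hoxd3os1 and Pax6os1. The groups of sense genes were drawn up with results of these data known, so the split is a description and was given no test. Regions near 5 of 6 mesenchyme and mesothelium markers were higher in the same list, and their part in the result was not tested.

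**Figure D1:**
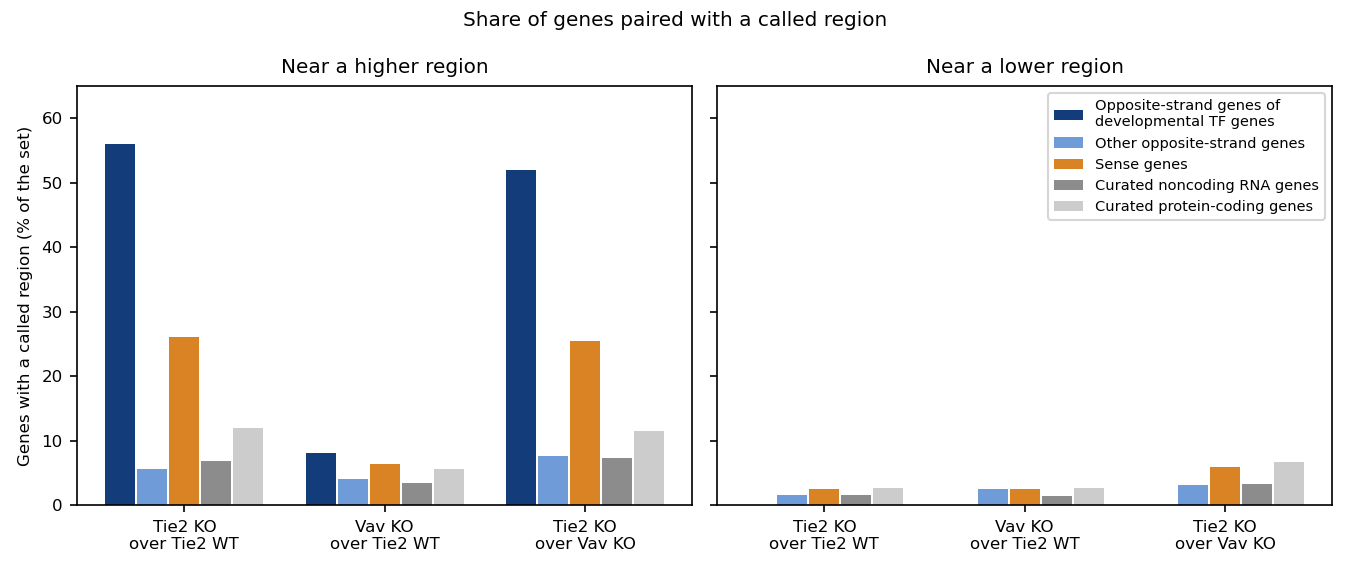
Share of genes paired with a called region (vertical axis, % of each set) in the 3 comparisons (horizontal axis), for higher regions on the left and lower regions on the right. Bars are, from left, opposite-strand genes of developmental transcription factor (TF) genes (25 genes), other opposite-strand genes (197), sense genes (204), curated noncoding RNA genes (3328) and curated protein-coding genes (21031). The first bar reaches 56.0% and 52.0% in the comparisons that hold Tie2 KO and 8.0% in Vav KO over Tie2 WT, and it is 0 on the right throughout.

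Evx1 is a homeobox gene of the posterior embryo and spinal cord. The region over the start of Evx1os had the largest log2 fold change of a member in this comparison, 1.84 in Tie2 KO over Tie2 WT (adjusted p 0.000197) in the authors' deposited table. It lay on chromosome 6 from 52313602 to 52315000 (mm10), inside the body of Evx1, beginning 103 bp downstream of the Evx1 start, and was paired with Evx1os alone. A further region 4869 bp upstream of Evx1os had 1.18 in the authors' deposited table, and the sense gene Evx1 had a region of its own at 1.03, located 2297 bp upstream of its start. All 3 regions of the locus were higher in Tie2 KO.

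Otx2 directs formation of the forebrain and midbrain, and Six3 patterns the anterior forebrain and the eye. Otx2os1 had a region over its start at a log2 fold change of 1.42 (adjusted p 1.29e-05) and another at 1.34 (3.49e-06) in the authors' deposited table, both also paired with Otx2. Six3os1 had 1.20 over its start (adjusted p 3.67e-07), a region shared with Six3, and 1.24 in a region 3605 bp upstream (8.28e-07) in the authors' deposited table. For these genes a single region is listed for both members of the pair, which is 1 measurement and not 2. The Otx2os1 regions lay at chr14:48669102-48670600 and chr14:48665002-48668700, and the second of them covers the Otx2 start.

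Emx2, a homeobox gene of the cerebral cortex and urogenital system, and Msx1, a homeobox gene of teeth and face, had opposite-strand partners with 3 higher regions each. In the authors' deposited table the Emx2os regions had log2 fold changes of 0.94 over the start, 0.91 at 966 bp upstream and 1.10 at 2066 bp upstream, with adjusted p-values of 0.00108, 0.000596 and 1.07e-05. The Msx1os regions had 1.15 over the start, 1.12 at 1763 bp upstream and 1.11 at 3163 bp upstream in the authors' deposited table, with adjusted p-values of 2.52e-05, 0.00235 and 7.21e-06. The Emx2os start lies 55 bp from that of Emx2 and 1 of its regions covers both starts, whereas Msx1os starts 4021 bp downstream of the Msx1 start and shares none of its regions with it.

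Dlx4os and Dlx6os2 are partners of genes of the Dlx family, homeobox genes of the forebrain, face and limbs. The Dlx4os region (chr11:95141102-95143900), 1152 bp upstream of its start and inside Dlx4, had a log2 fold change of 1.35 (adjusted p 9.44e-06) in the authors' deposited table. In the authors' deposited table Dlx4 itself had separate regions at 0.75 and 1.10. Dlx6os2 shared its region at 0.81 with Dlx6 in the authors' deposited table.

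The remaining partners of developmental regulators had log2 fold changes between 0.59 and 1.18. Nkx2-2 specifies ventral neural tube and pancreatic islet cells, and the region over the Nkx2-2os start had a log2 fold change of 1.18 (adjusted p 0.0132) in the authors' deposited table, the weakest of the 38 higher member regions by that p. Lhx1os, partner of a regulator of head and kidney development, had 0.89 over its start, shared with Lhx1, and 0.96 upstream in the authors' deposited table. In the authors' deposited table, Foxd2os had 0.96, Hoxa11os 0.85, Foxl2os 0.80, Hoxd3os1 0.65 and Pax6os1 0.59.

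The 11 other higher members included 2 partners of transcription factor genes, Vax2 and Ptf1a, that the family names of the group do not take. Vax2os, partner of a homeobox gene of the ventral eye, had log2 fold changes of 1.56 (adjusted p 3.75e-06) and, in a nearer region, 1.29 (7.02e-07) in the authors' deposited table. The first lies at chr6:83716502-83717900, inside Vax2. Vax2 had a region of its own over its start at 0.85 in the authors' deposited table. Ptf1aos, partner of a pancreatic and cerebellar factor, had 1.20 in the authors' deposited table, while Ptf1a had no called region.

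Gad1 encodes the enzyme that makes the transmitter GABA, and Gad1os had 3 higher regions. The authors' deposited table gives them log2 fold changes of 0.77 over the start (adjusted p 9.42e-08), 1.81 at 1044 bp upstream (0.000216) and 0.80 at 2744 bp upstream (1.91e-07). The first also covers the Gad1 start. The region of largest change (chr2:70564402-70565600) lay inside the Gad1 body and was paired with Gad1os alone. Kcnd3os (partner of a potassium channel gene) had 0.88, Grin1os (partner of an NMDA receptor subunit gene) 0.81, Uchl1os (partner of a neuronal deubiquitinase gene) 0.76 and Atcayos 0.62 in the authors' deposited table. Each of these 4 regions covered the start of its opposite-strand gene, and those of Kcnd3os and Uchl1os also covered the sense gene's start and were paired with the sense gene.

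The last members of the group were Plekhd1os, Kank4os, Igf2os and Nphs1os. Plekhd1os shared a region at a log2 fold change of 1.31 with Plekhd1 in the authors' deposited table, and Kank4os had 0.81 in a region 3467 bp upstream. Igf2 is an imprinted gene of a fetal growth factor, and Igf2os had regions at 1.01 over its start (adjusted p 1.41e-06), 1.12 at 1292 bp upstream (1.25e-05) and 1.43 at 3192 bp upstream (2.55e-06) in the authors' deposited table. All of them lay inside the Igf2 body and were also paired with the microRNA gene Mir483, and none was paired with Igf2, which had no called region in this comparison. The region of largest change lay at chr7:142654802-142656500.

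Lower members were few. The region over the start of Chn1os3, partner of a gene for a Rac GTPase-activating protein, had a log2 fold change of -1.06 (adjusted p 0.00168) in the authors' deposited table. Uckl1os, partner of a gene of the uridine kinase family, had -1.59 (adjusted p 0.000592) in a region 2479 bp upstream (chr2:181574802-181576000) in the authors' deposited table. Nphs1os, partner of the gene for nephrin of the kidney filter, was listed in both directions. In the authors' deposited table its region over the start (chromosome 7 from 30465502 to 30466500) had a log2 fold change of -0.96 with an adjusted p of 0.000747, and the next region (30466502 to 30467800) had 1.77 with an adjusted p of 8.84e-07. These regions abut, and no other pair of higher and lower regions of the comparison does. None of these sense genes had a called region in this comparison.

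**Figure D2:**
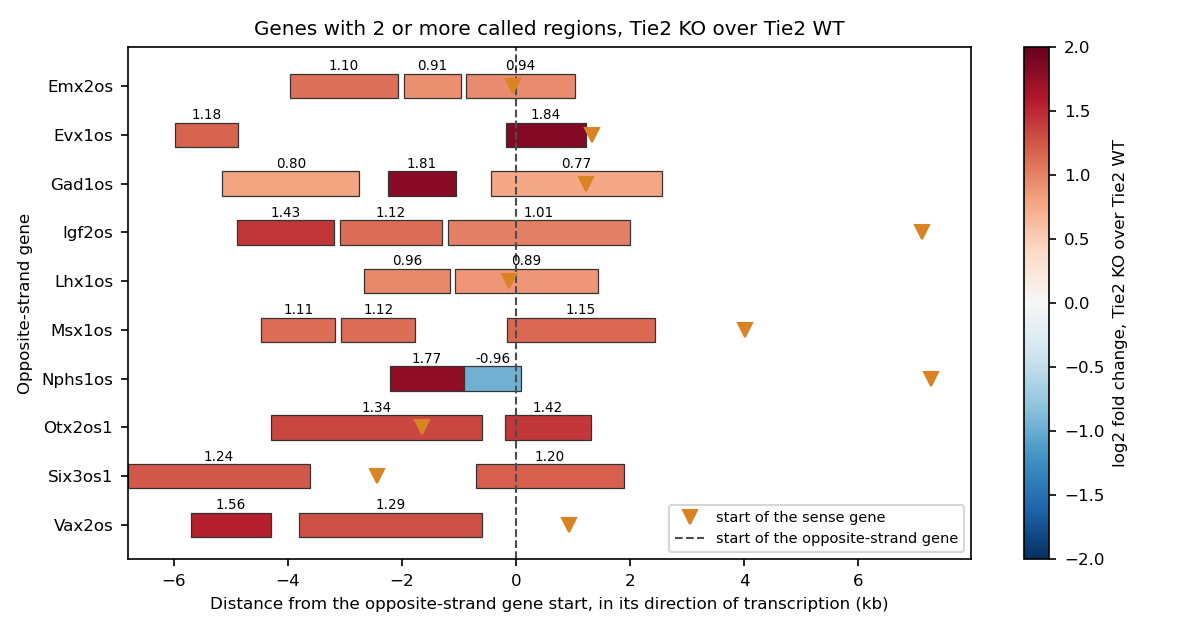
Called regions (boxes) of the 10 opposite-strand genes with 2 or more regions in Tie2 KO over Tie2 WT, drawn to scale along the distance from the opposite-strand gene's start in its direction of transcription (horizontal axis, kb). The number above each box and its colour give the authors' log2 fold change, and triangles mark the start of the sense gene. All boxes are red (higher in Tie2 KO) except that over the Nphs1os start at -0.96, which abuts a box at 1.77.

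Of the 38 higher regions, 22 overlapped the sense gene's body by at least 1 bp without covering its start, 9 covered the sense gene's start, 6 lay outside the sense gene and 1 could not be placed. By size, the member regions were close to all regions of the comparison, with a median log2 fold change of 1.105 against 1.02 over all 2959 higher regions. They covered the start of their opposite-strand gene in 44.7% of cases, while 55.6% of all higher regions covered the start of any gene paired with them. These shares are unlike measures, since the start of a sense gene counts only in the second. The member regions were paired with more than 1 gene in 42.1% of cases, against 7.2% of all higher regions. Members are named after a neighbouring gene, and in 27 of 42 placed pairs the starts lie within 5 kb. A high share is thus partly built into the choice of members. Regions over the members' starts had a median of 0.89 and those upstream of them 1.12. All higher regions had 0.98 over the start of a paired gene and 1.08 upstream only.

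Vav KO was compared with Tie2 WT, the control of the other Cre line, to ask the same of deletion with the blood cell driver. Here 10 of the 222 opposite-strand genes (4.5%) had a higher region and 5 (2.25%) had a lower one. The background was 3.43% higher and 1.44% lower over curated noncoding RNA genes, and 5.51% higher and 2.7% lower over curated protein-coding genes. The share of curated noncoding members with a higher region was 4.71%, and that of members with a lower region was 1.76%, both near the background. Partners of developmental transcription factor genes made up 2 of the 10, Dlx4os and Hoxa11os.

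None of the 11 higher regions covered the start of its opposite-strand gene. Of all 1313 higher regions of the comparison, 16.9% covered the start of any gene paired with them, which is a wider measure. Their median log2 fold change was 1.78, against 1.35 over all higher regions, and 1.45 over all those upstream only. The regions were narrow, with widths of 999 or 1099 bp, 999 bp being the smallest width in the lists.

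Nphs1os led, with a log2 fold change of 2.42 (adjusted p 5.99e-06) in the authors' deposited table for a region 1010 bp upstream of its start. Tmem150cos had 1.90 (adjusted p 9.72e-05), at 3361 bp upstream, in the authors' deposited table. Tnk2os, partner of a tyrosine kinase gene, had 1.85 (adjusted p 0.00164) at 504 bp upstream in the authors' deposited table. Srrm4os, partner of a neuronal splicing factor gene, had 1.81 (adjusted p 7.48e-06) at 4721 bp upstream in the authors' deposited table. These regions lay at chr7:30466602-30467600, chr5:100073602-100074600, chr16:32668702-32669700 and chr5:116433002-116434000. None of the 4 was paired with another gene, and no sense gene of the 4 had a called region in this comparison.

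Dlx4os had a log2 fold change of 1.80 (adjusted p 0.000476) at 3052 bp upstream in the authors' deposited table, over a stretch that overlaps its higher region of Tie2 KO over Tie2 WT by 899 bp. Rab11fip4os2, partner of a gene for a Rab11 effector, had 1.78 (adjusted p 2.74e-05) at 215 bp upstream (chr11:79675302-79676400) in the authors' deposited table. Rab11fip4, whose start lies 84089 bp from that region, had a region of its own at 1.17 in the authors' deposited table, and this was the only pair with both genes higher. Hoxa11os, partner of a homeobox gene of the forelimb, kidney and uterus, had 1.55 and 0.99 in regions that were also paired with Hoxa10 in the authors' deposited table. Ctrcos, partner of the pancreatic protease gene Ctrc, had 1.65 in the authors' deposited table. The 2 protein-coding members were Wdr83os, whose product is a membrane protein of the endoplasmic reticulum, at 1.61 (adjusted p 4.68e-05) and Selenos, whose product takes part in the removal of misfolded proteins from that compartment, at 1.49 (0.00134) in the authors' deposited table.

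The 5 lower members were Zbtb8os, Igf2os, Rbm3os, Zfp85os and Fbxl12os. Zbtb8os, a protein-coding gene whose human product assists a transfer RNA ligase, had a log2 fold change of -2.25 (adjusted p 9.23e-06) at 2625 bp upstream (chr4:129332102-129333400) in the authors' deposited table. Igf2os had -1.78 (adjusted p 1.24e-05) at 1792 bp upstream, and Rbm3os, partner of a cold-induced RNA-binding protein gene, had -1.19 (0.000169) at 126 bp upstream in the authors' deposited table. The regions of Zfp85os at -1.09 and Fbxl12os at -0.80 covered the gene starts in the authors' deposited table. The prefix of Zbtb8os is not a gene symbol of the RefSeq table, so no sense gene could be matched to it. None of the other 4 had a sense gene with a lower region in this comparison.

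Tie2 KO was compared with Vav KO to ask how the Ezh2 knockouts made with the 2 drivers differ. Of the 222 opposite-strand genes, 28 (12.6%) had a region higher in Tie2 KO and 6 (2.7%) had a region lower in Tie2 KO. The background was 7.3% higher and 3.19% lower over curated noncoding RNA genes, and 11.5% higher and 6.61% lower over curated protein-coding genes. Among curated noncoding members the share was 16.5% higher and 1.76% lower. Of the 25 partners of developmental transcription factor genes, 13 (52.0%) had a higher region, against 15 of the other 197 (7.61%), and 0 had a lower one.

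The largest changes of any member were in this comparison. Nkx2-2os had a log2 fold change of 2.97 in Tie2 KO over Vav KO (adjusted p 0.000108) in a region 3282 bp upstream of its start in the authors' deposited table. That region (chromosome 2 from 147179802 to 147180800) lay inside the Nkx2-2 body and was paired with Nkx2-2os alone, and those of Nkx2-2 itself had 0.76 and 1.23 in the authors' deposited table. Dlx6os1, the Evf2 locus, had 2.43 (adjusted p 5.06e-06) at 68 bp upstream (chr6:6869602-6871300) in the authors' deposited table. Dlx6 had 1.56 and 0.75 at regions upstream of its own start, and Dlx6os2 had 0.70 over its start, in the authors' deposited table.

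Gad1os had 4 regions, the highest number of any member. The authors' deposited table gives them log2 fold changes of 1.14 over the start (adjusted p 0.0175), 2.33 at 744 bp (0.000157), 1.54 at 1944 bp (1.42e-05) and 0.74 at 4144 bp upstream (0.000112). As against Tie2 WT, the region just upstream of Gad1os and inside Gad1 changed most, and the region over both starts changed less. Six3os1 had 2.27 at 4205 bp upstream (adjusted p 7.46e-07) and 1.64 over its start (3.94e-06), a region shared with Six3, in the authors' deposited table. Msx1os had 2.15 at 1963 bp upstream (adjusted p 1.21e-06) and 1.14 over its start (0.000105), and Msx1 had 1.10 and 1.01 in the authors' deposited table. Hoxb5os had 2.11 (adjusted p 1.85e-07) at 1291 bp upstream and 0.66 (0.000688) in a further region shared with the microRNA gene Mir10a, and Hoxb5 had 1.40 in the authors' deposited table. The regions of largest change of these genes lay at chr17:85622602-85625200 (Six3os1), chr5:37816202-37818600 (Msx1os) and chr11:96308202-96309300 (Hoxb5os), each upstream of the start.

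Evx1os had 2.04 and 1.09, Otx2os1 1.61 and 0.91, Emx2os 1.33 and 0.86, and Lhx1os 0.84 and 0.75 in the authors' deposited table. A single region was listed for Dlx4os at 1.04 (adjusted p 1.59e-05), Foxl2os at 0.93 and Foxd2os at 0.89 in the authors' deposited table. Of the regions in this paragraph, those of Otx2os1 at 1.61, Emx2os at 0.86, Lhx1os at 0.75 and Foxl2os at 0.93 were also paired with the sense gene. Dlx4os and Igf2os were the only members listed in all 3 comparisons, and the Dlx4 region of this comparison had 1.94 in the authors' deposited table.

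Among the other 15 higher members, Rbm3os had the largest log2 fold change, 2.59 (adjusted p 6.92e-06) at 226 bp upstream (chrX:8144202-8145200), in the authors' deposited table. After Gad1os, whose values are above, Ptf1aos had 2.04, Igf2os 1.86 and 1.22, and Plekhd1os 1.68 in the authors' deposited table. Igf2 had a region over its own start here, at 1.07 (adjusted p 0.00314) in the authors' deposited table. Zfhx2os, partner of a zinc finger homeobox gene, had 1.31, and Hnf4aos, partner of a nuclear receptor gene of liver and visceral endoderm, had 1.00 over its start in the authors' deposited table. Grin1os had 1.3, Vax2os 0.78, Kcnd3os 0.66, Uchl1os 0.68, Kcnmb4os2 0.69 and Atcayos 0.68 in the authors' deposited table. The regions of Plekhd1os, Vax2os, Kcnd3os, Uchl1os and Kcnmb4os2 were also paired with the sense gene. Fam120aos, partner of an RNA-binding protein gene, had 0.99, and Frs3os, partner of a fibroblast growth factor receptor adaptor gene, had 0.83 in the authors' deposited table.

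The 6 members lower in Tie2 KO than in Vav KO were Appbp2os, Uckl1os, Selenos, Wdr83os, Bcas3os1 and Fancd2os. Appbp2os had a log2 fold change of -2.07 (adjusted p 6.34e-06) at 4165 bp upstream (chr11:85230002-85231000), and Uckl1os had -1.42 (9.85e-05) at 2279 bp upstream in the authors' deposited table. Selenos had -1.20 (adjusted p 1.24e-05) and Wdr83os -1.12 (1.75e-05), while Bcas3os1 had -1.09 and Fancd2os, whose partner encodes a protein of DNA crosslink repair, had -1.05 in the authors' deposited table. None of these regions covered the gene start. Of the 6, Selenos, Wdr83os and Fancd2os are protein-coding.

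**Figure D3:**
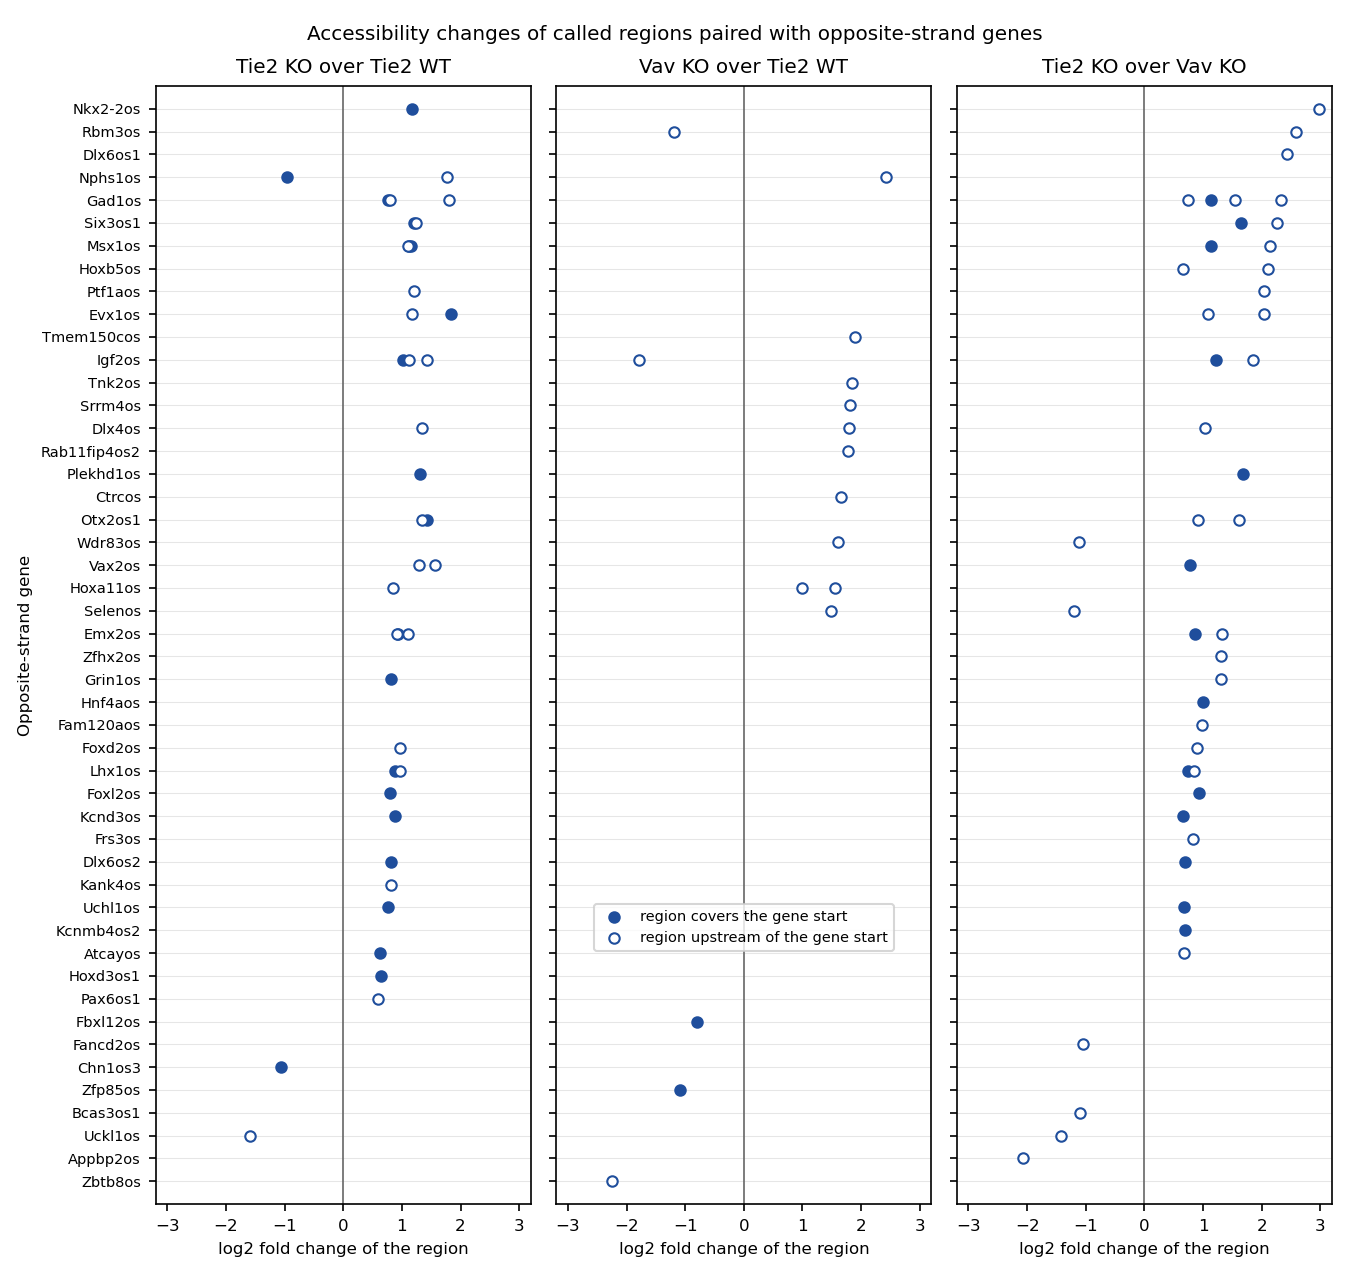
Log2 fold change (horizontal axis, the authors' values) of each called region of the 48 opposite-strand genes (rows) in the 3 comparisons. Rows are ordered by the signed value of each gene's region of largest absolute change. Filled points cover the gene start and open points lie upstream of it, and values right of 0 are higher in the first-named group. The left and right panels hold mostly points between 0.59 and 2.97, the middle panel has no filled point right of 0, and the gap around 0 is there because the lists hold only called regions.

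More sense genes than opposite-strand partners had a higher region in each comparison. In Tie2 KO over Tie2 WT, 25 of 222 opposite-strand genes (11.3%) had a higher region, against 53 of 204 sense genes (26.0%). In Vav KO over Tie2 WT the counts were 10 opposite-strand genes and 13 sense genes (6.37%). In Tie2 KO over Vav KO they were 28 opposite-strand genes and 52 sense genes (25.5%). Over all curated protein-coding genes the background of higher regions in these comparisons was 12%, 5.51% and 11.5%, so the share of sense genes in Vav KO over Tie2 WT lay near it. Lower regions lay at 5 of 204 sense genes (2.45%) in each comparison with Tie2 WT and at 12 (5.88%) in Tie2 KO over Vav KO, near the background of 2.62%, 2.7% and 6.61%.

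Both genes of a pair were often listed together. In Tie2 KO over Tie2 WT, the sense gene had a higher region in 72.0% of pairs whose opposite-strand gene had one (18 of 25), against 21.0% of pairs whose opposite-strand gene had none. Of the 18 pairs, 10 shared at least 1 region and 8 were listed on different regions (Dlx4os, Evx1os, Hoxa11os, Hoxd3os1, Kank4os, Msx1os, Nkx2-2os and Vax2os). In Tie2 KO over Vav KO the share was 75.0% (21 of 28), with 11 pairs that shared a region and 10 that did not, against 18.2% where the opposite-strand gene had no higher region. In Vav KO over Tie2 WT it was 11.1% (1 of 9), against 6.16%. Neighbouring regions of one locus are not independent, so these shares describe the loci.

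The order of the changes within a pair varied. Among the 8 pairs on different regions in Tie2 KO over Tie2 WT, the opposite-strand gene had the larger log2 fold change at Evx1os (1.84, against 1.03 at Evx1), Vax2os (1.56, against 0.85) and Dlx4os (1.35, against 1.10) in the authors' deposited table. At Hoxa11os the value was 0.85, against 2.08 at Hoxa11, and at Hoxd3os1 it was 0.65, against 1.35 at Hoxd3, in the authors' deposited table. Msx1os, Nkx2-2os and Kank4os also had the smaller value of their pair. In Tie2 KO over Vav KO, 23 of 24 pairs had the same sign, but 11 of the 24 shared at least 1 region. In 4 of these the largest value of both genes was that of 1 shared region, so the sign was bound to agree. Zfhx2os was the exception at 1.31, against -0.97 for a region upstream of Zfhx2 (adjusted p 0.000184), in the authors' deposited table. Bcas3os1 and Wdr83os were lower together with their sense genes, at -0.69 for Bcas3 and -0.65 for Wdr83 in the authors' deposited table.

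**Figure D4:**
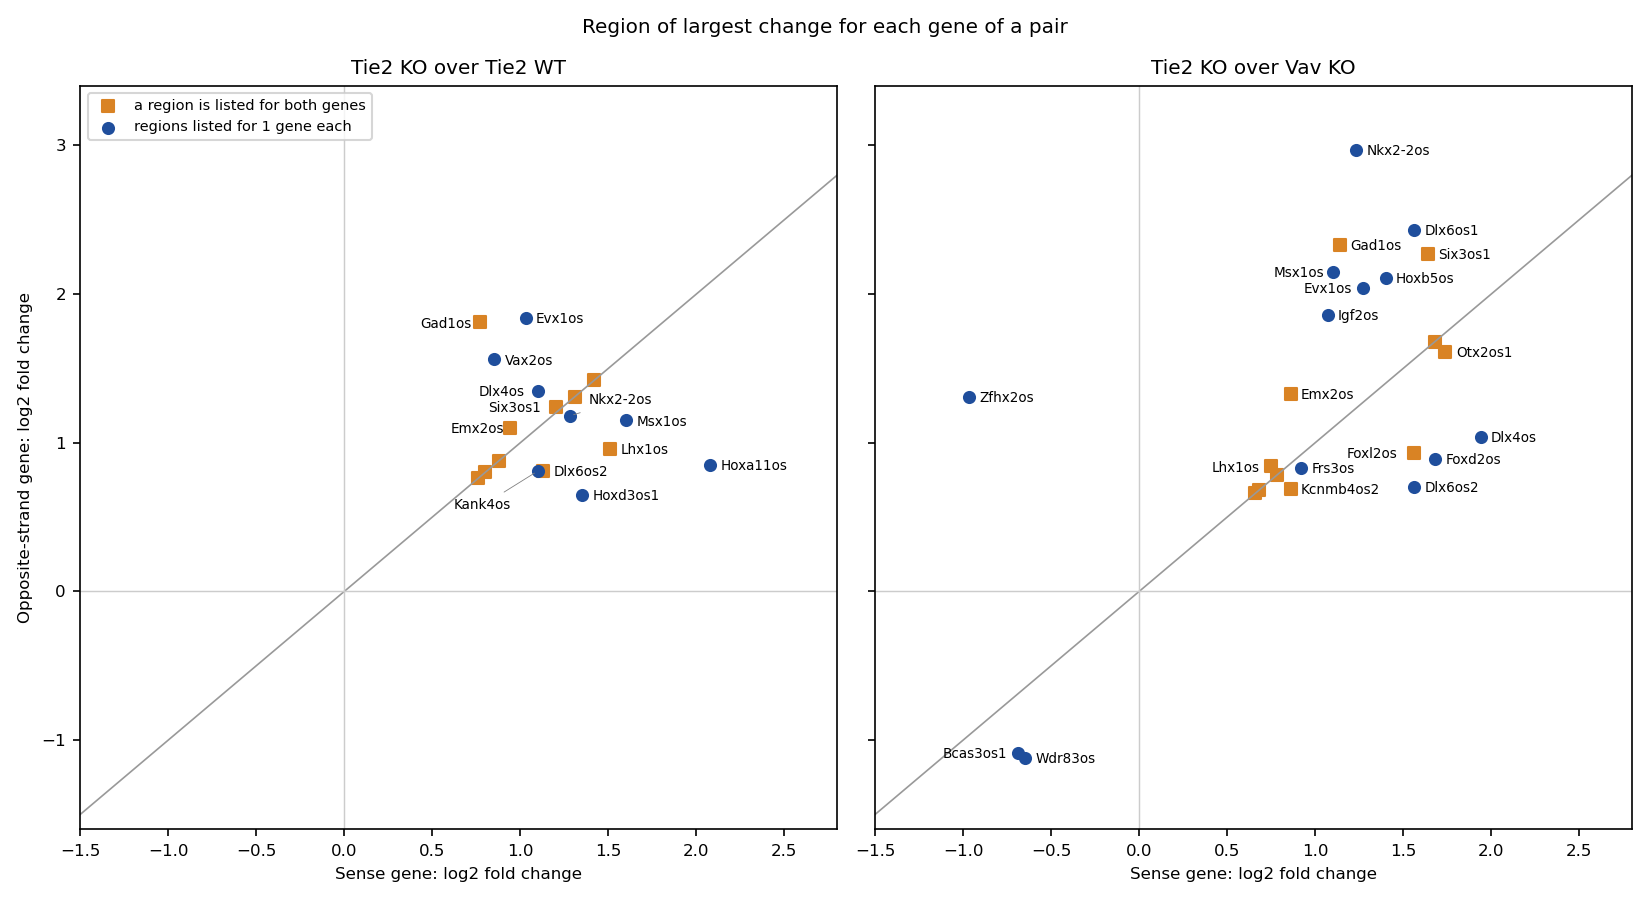
Largest log2 fold change (the authors' values) of the opposite-strand gene's regions (vertical axis) against that of its sense gene's regions (horizontal axis), for the 18 pairs listed in Tie2 KO over Tie2 WT and the 24 in Tie2 KO over Vav KO. Squares are pairs with a region listed for both genes, circles are pairs on different regions, the line marks equal values, and pairs whose largest value is 1 shared region lie on the line and are unlabelled. Zfhx2os is the only point with values of opposite sign, at 1.31 and -0.97.

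The geometry of the pairs could be set for 42 members, all of which lie on the strand opposite to their sense gene. The gene bodies overlap in 31 pairs, and the opposite-strand start lies upstream of the sense start in 11 and downstream of it in 31. The distance between the starts ranged from 46 bp (Appbp2os) to 366580 bp (Bcas3os1), with a median of 2378.5 bp, and was at most 1 kb in 14 pairs and at most 5 kb in 27. In 8 pairs the starts point away from each other and lie within 1 kb. Of these, Emx2os (55 bp), Lhx1os (126 bp), Plekhd1os (135 bp) and Foxl2os (297 bp) had a called region that was also paired with the sense gene, and Appbp2os, Wdr83os (217 bp), Fam120aos (284 bp) and Foxd2os (391 bp) had none.

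Promoter windows were found for 38 members. The median number of CG dinucleotides in their 41 windows was 9, against 7 over 32851 RefSeq promoters and 19 in the 49 windows of the sense genes. Members with a higher region in Tie2 KO over Tie2 WT had a median of 14.5 over 20 windows, and those with a higher region in Tie2 KO over Vav KO had 16 over 23 windows. Those with a lower region had 3 over 3 windows and 8 over 7 windows in the same comparisons. In Vav KO over Tie2 WT the median was 9 over 8 windows for higher members and 19 over 3 windows for lower ones. On either strand, GGGCGG was found in 34.1% of member windows and 35.7% of all promoters, CCAAT in 43.9% and 37.4%, TATAAA in 12.2% and 13.6%, CAGCTG in 19.5% and 16.3%, and AGATAA in 7.32% and 11.2%. The motifs searched do not contain one another, GGGCGG holds 1 CG dinucleotide, and a match is a description of letters and not of binding.

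Values of the 3 comparisons stand side by side for the members but share samples, since Tie2 KO, Tie2 WT and Vav KO each enter 2 of them. Of the 48 members, 22 were listed in 1 comparison, 24 in 2 and 2 in 3, and 20 were higher in Tie2 KO in both comparisons that hold it. The same counts over all listed genes are not given here, so being listed again is not shown to be particular to the members. Overlapping regions of 2 comparisons formed 41 pairs, of which 33 joined Tie2 KO over Tie2 WT to Tie2 KO over Vav KO. Rbm3os had -1.19 in Vav KO over Tie2 WT and 2.59 in Tie2 KO over Vav KO, on regions that overlap by 899 bp, in the authors' deposited table. At Wdr83os and Selenos the signs were the other way round, at 1.61 and 1.49 in Vav KO over Tie2 WT and at -1.12 and -1.20 in Tie2 KO over Vav KO in the authors' deposited table. Vav KO is the first-named group in one of these comparisons and the second-named in the other. The signs thus mean lower accessibility in Vav KO at Rbm3os, and higher accessibility in Vav KO at Wdr83os and Selenos. These 3 genes had no called region in Tie2 KO over Tie2 WT. Igf2os had overlapping regions in all 3 comparisons, at 1.12 in Tie2 KO over Tie2 WT, -1.78 in Vav KO over Tie2 WT and 1.22 in Tie2 KO over Vav KO in the authors' deposited table. Of the 4 overlapping pairs between the comparisons with Tie2 WT, it was the only one of opposite sign. The other 3 were higher in both knockouts, at 1.77 and 2.42 (Nphs1os), 0.85 and 0.99 (Hoxa11os), and 1.35 and 1.80 (Dlx4os) in the authors' deposited table.

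Other noncoding RNA genes gave a mixed picture. Among 7 noncoding genes named after a sense gene with another ending, Sox1ot, Dlx1as and Gnasas1 had a higher region in Tie2 KO over Tie2 WT, at up to 1.63, 1.19 and 0.96 on the log2 scale in the authors' deposited table, and 0 had a lower one. Of 30 well known long noncoding RNA genes, 7 were higher (Airn, Dleu2, H19, Hotairm1, Hottip, Pantr1 and Plut) and 3 lower (Ftx, Jpx and Malat1) in that comparison. Ftx and Jpx lie in the X inactivation centre, and their lowest values were -1.32 and -0.74 in the authors' deposited table. In Vav KO over Tie2 WT 3 of the 30 were higher and 0 lower, and in Tie2 KO over Vav KO 8 were higher and 1 lower. Over all curated noncoding RNA genes, the share in Tie2 KO over Tie2 WT was 6.88% higher and 1.56% lower. It was 3.43% and 1.44% in Vav KO over Tie2 WT, and 7.3% and 3.19% in Tie2 KO over Vav KO. Both lists are short and were chosen with earlier results known, so these counts are a description.

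Markers of other cells moved in the same lists. The background over all curated protein-coding genes was 12% higher and 2.62% lower in Tie2 KO over Tie2 WT. It was 5.51% and 2.7% in Vav KO over Tie2 WT, and 11.5% and 6.61% in Tie2 KO over Vav KO. The marker lists are short, so the counts are a description. Of 6 mesenchyme and mesothelium markers, 5 (Col1a2, Hand1, Pdgfra, Twist1 and Wt1) had a higher region in Tie2 KO over Tie2 WT and 3 in Tie2 KO over Vav KO, while in Vav KO over Tie2 WT Col1a2 was higher and Pdgfra lower. Of 6 endothelial markers, Cdh5 and Tek were higher and Pecam1 lower in Tie2 KO over Tie2 WT, Kdr and Tek were higher in Tie2 KO over Vav KO, and 0 were listed in Vav KO over Tie2 WT. Tek is the gene whose regulatory sequence drives Tie2-Cre, and its region over 12899 bp had a log2 fold change of 2.90 in Tie2 KO over Tie2 WT in the authors' deposited table. Vav1, the source of the other driver, had 0.81 in Vav KO over Tie2 WT in the authors' deposited table. The part of transgene copies in these values was not tested. Of 5 mast cell and megakaryocyte markers, 0 were higher and 3 lower (Cpa3, Gp6 and Treml1) in Tie2 KO over Tie2 WT, 2 were lower (Hdc and Treml1) in Vav KO over Tie2 WT, and in Tie2 KO over Vav KO Hdc was higher and Cpa3 and Treml1 lower. Of 5 primitive erythroid markers, Epor alone was listed, higher in Vav KO over Tie2 WT and lower in Tie2 KO over Vav KO. Of 4 macrophage markers, Csf1r was higher in Vav KO over Tie2 WT and lower in Tie2 KO over Vav KO, where Cx3cr1 was higher. Of 10 markers of erythro-myeloid progenitors 0 had a called region in Tie2 KO over Tie2 WT. In the other comparisons the only such marker listed was Gata2, lower in Vav KO over Tie2 WT and higher in Tie2 KO over Vav KO. Of 6 yolk sac endoderm markers, Foxa2 was higher in Tie2 KO over Tie2 WT and in Tie2 KO over Vav KO and lower in Vav KO over Tie2 WT. The part of these cells in the results was not tested. The lists give no level per sample, so neither the labelled cell type nor the summed level of these markers can be checked.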

How the data were processed

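ATAC-seq was run on 14 samples in 4 groups, and called regions of 3 of the groups were taken from 6 deposited lists, with higher and lower regions of each of 3 comparisons in separate lists. The group abbreviations of the lists were read as Tie2 KO, Vav KO and Tie2 WT. Each region has the authors' log2 fold change and adjusted p-value, per the file headers. Other deposited columns hold its width and the distance to the start of the paired gene, both in bp. For tools, the submitters' processing notes list HOMER 4.10, MACS2 2.1.2, SAMtools 1.3.1, Bowtie2, Picard and FastQC, without their roles, and the build mm10. The test that called regions, the scaling of libraries and any shift of reads for Tn5 are not given in the sources used. The largest adjusted p-value in the deposited lists was 0.0479.

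All regions lay over a gene start or at most 5 kb upstream. Lines were matched by gene ID to RefSeq genes of GRCm38.p6 (10669 of 10679 matched), which gave gene types, sense genes and promoters. The table holds 225 opposite-strand symbols. Hand2os1, Fzd10os and Gata6os are listed under other symbols, so they are no members and 222 remain as the denominator. The promoter windows held the gene start of the lists for 90.6% of genes. Genes with a called region were counted, with Python 3.11.15 and pandas 2.3.3, and no test was run, since the lists hold no value per sample. The counting was tested on simulated lists. Members and gene lists were chosen with earlier results of these data known. All members are named. Adjusted p-values and positions were given first for the 8 with the largest change in each comparison, those listed in both directions or in 3 comparisons, and those with 3 or more regions. The alternatives tried were stricter limits on p and fold change, region position and width, pairing, overlap and membership.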

Additional observations from a re-analysis of the deposited data

Results flagged for a closer look

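Igf2os was flagged because its log2 fold changes in the comparisons of each knockout with Tie2 WT had opposite signs at overlapping regions. In the authors' deposited table the log2 fold change was 1.12 in Tie2 KO over Tie2 WT and -1.78 in Vav KO over Tie2 WT, with adjusted p-values of 1.25e-05 and 1.24e-05. The regions share 1199 bp of the Igf2 body. The comparisons share the Tie2 WT samples, and the lists give no value per sample, so the difference between these effects was not tested here. The authors' direct comparison of Tie2 KO over Vav KO had 1.22 at an overlapping region (adjusted p 7.25e-07) in the authors' deposited table.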

How the results depend on the processing

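No paired analysis was possible because the lists hold no value per sample, and leaving out each replicate in turn could not be run for the same reason. Counts of genes stayed within 1.5 times the reported ones, in every comparison and direction, with an adjusted p of at most 0.01, with members limited to those whose prefix is a gene symbol and with membership by the current symbol. Settings below are those that moved a count further; limiting members to noncoding genes and using current symbols were chosen after seeing the data.

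With an absolute log2 fold change of at least 1, 13 opposite-strand and 29 sense genes were higher and 2 sense genes lower in Tie2 KO over Tie2 WT, 2 sense genes were lower in Vav KO over Tie2 WT, and 17 opposite-strand and 34 sense genes were higher and 6 sense genes lower in Tie2 KO over Vav KO. With only regions over the gene start, 32 sense genes were higher and 0 lower in Tie2 KO over Tie2 WT. In Vav KO over Tie2 WT, 0 opposite-strand and 3 sense genes were then higher and 2 opposite-strand and 0 sense genes lower, and in Tie2 KO over Vav KO 14 opposite-strand and 34 sense genes were higher and 0 of each lower. With only regions of the smallest width, opposite-strand genes numbered 2 higher and 1 lower in Tie2 KO over Tie2 WT, 3 lower in Vav KO over Tie2 WT and 9 higher in Tie2 KO over Vav KO. Sense genes then numbered 13 higher and 2 lower, 7 higher and 2 lower, and 12 higher and 5 lower in those comparisons. With only regions paired with no other gene, 16 opposite-strand genes were higher in Tie2 KO over Tie2 WT and 3 lower in Vav KO over Tie2 WT. Among noncoding members 3 were lower in Vav KO over Tie2 WT and 3 in Tie2 KO over Vav KO. Requiring a reciprocal overlap of at least 50% left 23 of the 41 overlapping pairs. Each of these settings keeps fewer regions or members by construction. Depth is unknown, so what it limits cannot be stated.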

Other observations

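Hand2os1, Fzd10os and Gata6os, opposite-strand genes that the lists hold under other symbols, each had 1 region over the gene start in both comparisons that hold Tie2 KO. The authors' deposited table gives them 1.19, 0.90 and 0.71 on the log2 scale in Tie2 KO over Tie2 WT and 0.98, 0.78 and 0.59 in Tie2 KO over Vav KO. Their sense genes encode a heart and limb regulator, a Wnt receptor and an endoderm regulator, in the same order. None of them had a called region in Vav KO over Tie2 WT.

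In Tie2 KO over Vav KO, 5 pairs of higher and lower regions abutted, against 1 in Tie2 KO over Tie2 WT and 0 in Vav KO over Tie2 WT. Gnasas1, an antisense gene of the imprinted Gnas locus, was listed in both directions in Tie2 KO over Vav KO, at 0.91 for a region 4665 bp upstream and -0.67 for a region 165 bp upstream in the authors' deposited table. Miat, a noncoding RNA gene of the nervous system, had 1.29 in Vav KO over Tie2 WT and 1.83 in Tie2 KO over Vav KO in the authors' deposited table, at regions 1053 bp upstream and over its start.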
